A study of Mus musculus with 6 samples.

Results

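The miR-29 family was followed in extracellular vesicles shed by apoptotic osteoblasts, the bone-forming cells, in a table of 1712 small RNA entries. All entries named miR-29a, miR-29b or miR-29c, with any arm or copy suffix, were taken, which gave 6 entries of the 1528 that carry a mouse miRNA name. The vesicles came from Prx1cre;SIRT6f/f mice (knockout, n = 3 libraries) and from SIRT6f/f mice (control, n = 3 libraries). Both groups carry floxed alleles of Sirt6, a deacetylase of the sirtuin family, and the knockout group also carries Cre under the Prx1 enhancer, which is active in limb bud mesenchyme. In both groups cultured osteoblasts were made apoptotic in serum-free medium, and the vesicles were collected from the supernatant by ultracentrifugation. Age, sex and any pooling of animals are not in the labels. Nothing there ties a replicate to its own animal or culture, so p-values measure only how far these libraries scatter, part of which may be technical. Deletion of Sirt6 itself cannot be checked in a small RNA table. The extraction protocol speaks of RNA from cells, whereas the tissue is labelled as extracellular vesicles.

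miR-29 miRNAs repress many mRNAs of the extracellular matrix, among them collagens, elastin and fibrillin, and are studied as brakes on fibrosis. In osteoblasts they are known to increase during differentiation and to restrain both collagen and inhibitors of bone formation. Each hairpin gives a 3p arm, which is the guide strand loaded into Argonaute, and a 5p passenger arm, most of which is degraded.

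The mature sequences of the 6 entries are shown because the family is defined by its seed, bases 2 to 8, which is in capitals. All 6 names matched the RefSeq table for GRCm38.p6.
mmu-miR-29a-3p: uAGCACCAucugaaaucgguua
mmu-miR-29b-3p: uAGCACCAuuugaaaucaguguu
mmu-miR-29c-3p: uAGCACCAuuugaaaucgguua
mmu-miR-29a-5p: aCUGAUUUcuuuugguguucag
mmu-miR-29b-2-5p: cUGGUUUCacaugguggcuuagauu
mmu-miR-29c-5p: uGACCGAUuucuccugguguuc

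The 3 entries of the 3p arms had the same seed, and no other mature mouse miRNA of the RefSeq table had it. Each of the 3 entries of the 5p arms had a seed of its own. Counted from 1 at the 5′ end, miR-29a-3p and miR-29c-3p differed by C10U alone, so a single base tells their reads apart. miR-29c-3p and miR-29b-3p differed by G18A, U21G and A22U over 22 compared positions, and miR-29b-3p is 1 base longer. The sources used here do not give the number of mismatches allowed when reads were assigned.

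The family lies in 2 clusters of the GRCm38 genome. On chromosome 6, minus strand, the Mir29a hairpin (chr6:31062660-31062747) lies 275 bases from Mir29b-1 (chr6:31063023-31063093); Mir29a is intergenic in GENCODE M21 and Mir29b-1 overlaps an exon of the lincRNA Gm27019. On chromosome 1, plus strand, Mir29b-2 (chr1:195037040-195037120) lies 426 bases from Mir29c (chr1:195037547-195037634). Both lie in an exon of the noncoding host transcript A330023F24Rik and opposite an exon of Cd46. The mature miR-29b-3p is the same from both clusters (chr6:31063025-31063047 and chr1:195037091-195037113), so its reads cannot be assigned to a cluster. miR-29a-3p (chr6:31062673-31062694) belongs to the chromosome 6 cluster, and miR-29c-3p (chr1:195037600-195037621) to the chromosome 1 cluster.

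Values are RPM, reads per 1000000 reads listed in a library, as the authors deposited them. A rise of abundant entries therefore lowers the RPM of all others. In each library every value was a whole multiple of the same step; if that step is 1 read, the depth was 1608276 to 1838239 reads in the knockout and 1352045 to 1627705 reads in the control libraries, and 3 reads correspond to 1.63 to 2.22 RPM. Annotated miRNAs other than 7 entries that may be ribosomal or transfer RNA fragments (miR-6236 to miR-6240, miR-3968 and miR-1983) are called ordinary miRNAs here. They took 36.3% ± 5.56 of listed reads in the knockout and 49.7% ± 2.84 in the control libraries (mean ± SD, n = 3 each), without overlap, with the lowest share, 30.1%, in knockout replicate 3. Entries that carry only a numeric ID took 56.6% ± 5.37 in the knockout and 47.6% ± 3.85 in the control libraries.

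Nearly all of the family in these vesicles was mmu-miR-29a-3p, and it fell in the knockout. It stood at 1843, 1998 and 961 RPM in knockout replicates 1, 2 and 3, against 3856, 2681 and 3547 RPM in control replicates 1, 2 and 3. All knockout libraries lay below all control libraries, and knockout replicate 3 was the lowest. The same separation held for 19.3% of tested entries, and for 74.5% of annotated miRNAs that averaged 1000 RPM or more, fragment-like entries left out. The means were 1601 ± 559 RPM in the knockout and 3361 ± 609 RPM in the control group (SD, n = 3 each), a ratio of 0.476. In a limma fit over all 1114 entries with at least 1 RPM in at least 3 libraries, on log2(RPM + 1), the log2 fold change was -1.12 ± 0.29 (SE; 95% interval -1.70 to -0.55; Benjamini-Hochberg adjusted p = 0.00664, 2-sided). An exact permutation test on the 6 RPM values gave p = 0.1, the smallest that 3 against 3 libraries allow. Of the 6 family entries 4 could be tested and 1 of them, miR-29a-3p, was called lower, beside 2.69% of all tested entries called lower and 2.15% called higher. The counting error was small beside these differences: in knockout replicate 3 the 95% Poisson interval, which covers counting error only, ran from 917 to 1007 RPM. In bulk samples such as these, fewer cells or vesicles of a type and less RNA per cell or vesicle cannot be told apart.

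**Figure D1:**
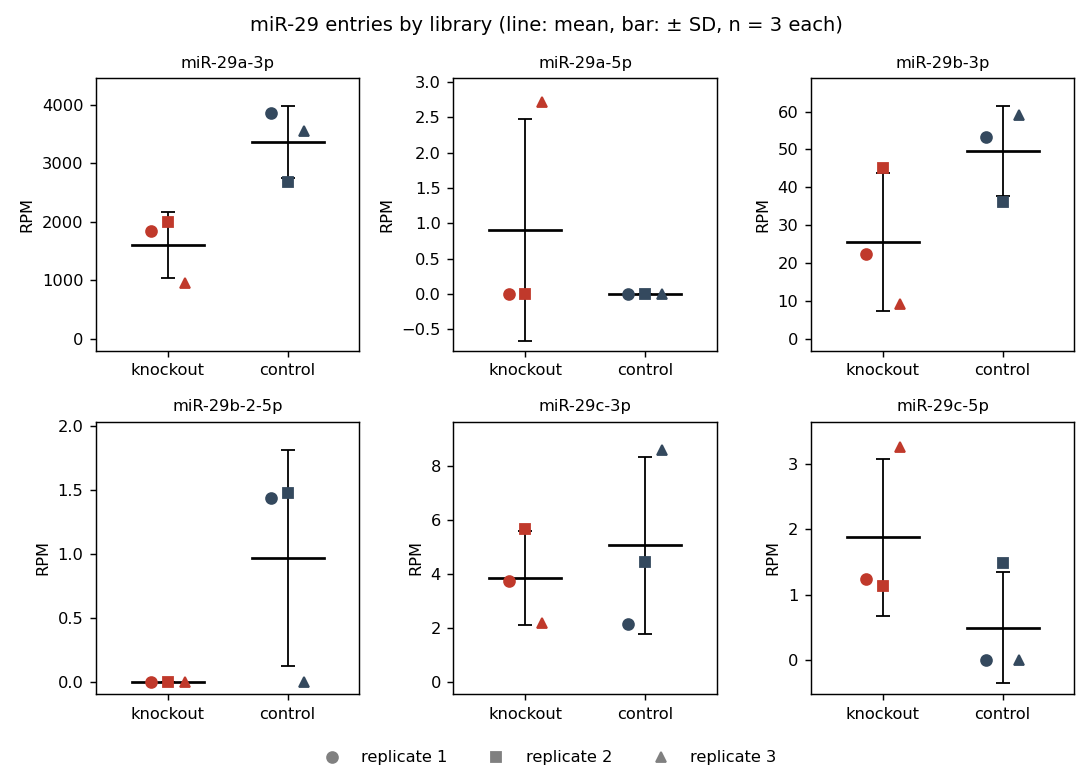
RPM of the 6 miR-29 entries (vertical axes, a scale of its own per entry) in the knockout and control libraries; symbols mark replicates, lines the mean and bars ± SD. miR-29a-3p lies at 961 to 1998 RPM in the knockout and at 2681 to 3856 RPM in the control libraries, whereas the groups overlap for the other 5 entries.

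The call of miR-29a-3p depended on how the spread was modelled and on the control libraries. The fit gave all weight to a spread shared by entries of like level: the SD used for miR-29a-3p was 0.36 on the log2 scale, while its own SD between replicates was 0.45. Without the mean-variance trend the adjusted p = 0.398 by limma, and in that fit no entry passed at all (0 higher and 0 lower; 55 and 75 at an unadjusted p under 0.05). The call was lost without control replicate 1 (-1.02, limma adjusted p = 0.122; 0.298% of all tested entries called lower) and without control replicate 3 (-1.08, limma adjusted p = 0.148; 0.201% called lower). Without knockout replicate 3 the call held, with a log2 fold change of -0.79 (limma adjusted p = 0.0190; 2.29% called lower). It also held without knockout replicate 1 (2.77% called lower), knockout replicate 2 (3.7%) and control replicate 2 (0.672%). The share of all tested entries called lower in the other settings was 1.35% with a pseudocount of 0.5, 2.42% with 10, 0.876% with no filter, 1.53% with a robust prior, 0.718% with median centring and 1.44% with quantile normalization, where the call held. It was 0.449% with scaling to all annotated entries, where the call was lost.

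mmu-miR-29b-3p, which shares the seed, was a minor entry with the same direction but overlapping groups. It stood at 22.4, 45.2 and 9.25 RPM in knockout replicates 1, 2 and 3, against 53.4, 36.2 and 59.0 RPM in control replicates 1, 2 and 3. Knockout replicate 2 lay above control replicate 2. The means were 25.6 ± 18.2 RPM in the knockout and 49.5 ± 11.8 RPM in the control group (SD, n = 3 each). The log2 fold change was -1.15 ± 0.39 (SE; 95% interval -1.92 to -0.38), which did not pass (limma adjusted p = 0.0609). Its own SD of 0.81 was larger than the 0.48 that the fit used. It passed without knockout replicate 2 (-1.68, limma adjusted p = 0.0141) and with a minimum mean of 10 RPM (limma adjusted p = 0.0284; 20% of entries called lower), and stood at -0.59 without knockout replicate 3 (limma adjusted p = 0.320). The 95% Poisson intervals of knockout replicate 3 (5.39 to 14.8 RPM) and knockout replicate 2 (35.8 to 56.2 RPM) did not touch.

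miR-29c-3p was close to the lower limit of these libraries. It stood at 3.73, 5.65 and 2.18 RPM in knockout replicates 1, 2 and 3, against 2.16, 4.44 and 8.60 RPM in control replicates 1, 2 and 3. The groups overlapped fully, since the knockout values lay within the control range. The log2 fold change was -0.24 ± 0.67 (SE; 95% interval -1.56 to 1.08; limma adjusted p = 0.849), an interval that holds both a doubling and a fall as large as that of miR-29a-3p. The sign turned to 0.11 after scaling to ordinary miRNAs, to 0.03 without knockout replicate 3 and to 0.16 without control replicate 3.

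**Figure D2:**
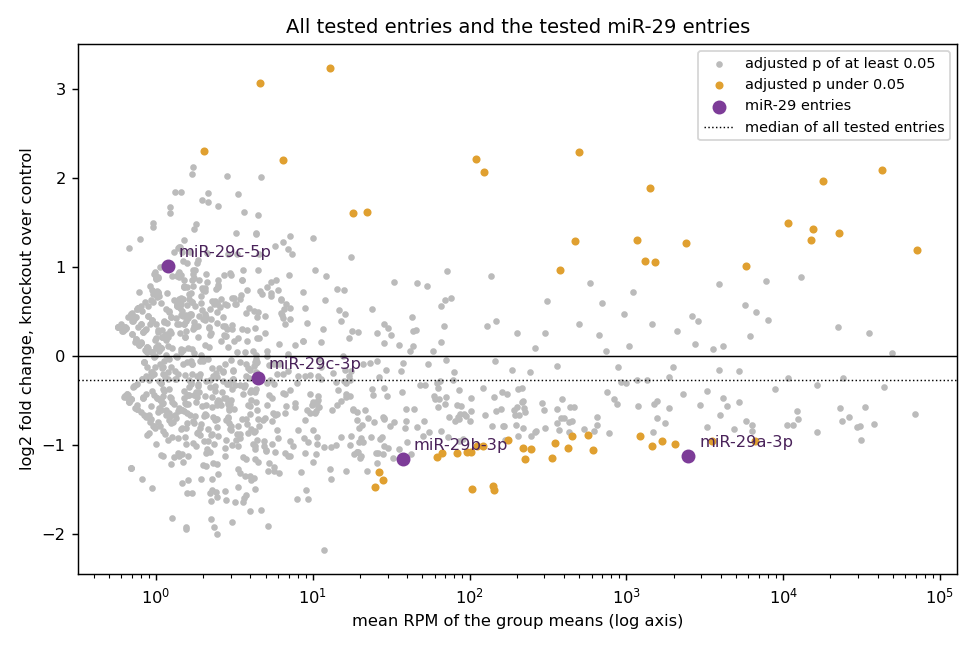
Log2 fold change of knockout over control (vertical axis) against mean RPM (horizontal log axis) for the 1114 tested entries, with the 4 tested miR-29 entries in purple. miR-29a-3p and miR-29b-3p lie at -1.12 and -1.15, below the dotted median of all tested entries at -0.27, and only miR-29a-3p of the 4 passed the threshold.

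The 5p arms, the passenger strands, were at or near 0. miR-29a-5p was listed at 0 in all 3 control libraries and in knockout replicates 1 and 2, and at 2.72 RPM in knockout replicate 3, the library with the least miR-29a-3p. No value of 1 step occurs in the table, so a listing of 0 may also stand for 1 read, and no upper limit is given for it. The log2 ratio of the 3p to the 5p arm of miR-29a, with 1 RPM added to each, was 10.8, 11.0 and 8.01 in knockout replicates 1, 2 and 3, and 11.9, 11.4 and 11.8 in control replicates 1, 2 and 3. The groups did not overlap (difference of means -1.76, exact permutation p = 0.1, the smallest possible), but where the 5p arm is at 0 this ratio follows the 3p level, and without knockout replicate 3 the difference was -0.79. miR-29b-2-5p was listed at 0 in all 3 knockout libraries and at 1.44, 1.48 and 0 RPM in control replicates 1, 2 and 3. miR-29c-5p stood at 1.24, 1.13 and 3.26 RPM in knockout replicates 1, 2 and 3, against 0, 1.48 and 0 RPM in control replicates 1, 2 and 3. Its log2 fold change of 1.01 ± 0.73 (SE; limma adjusted p = 0.502) rests on values near the level of 3 reads.

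The share of each 3p member in the family overlapped between the groups. miR-29a-3p made up 98.3% ± 0.70 of the RPM of the 3p entries in the knockout and 98.4% ± 0.24 in the control libraries. miR-29b-3p made up 1.20%, 2.21% and 0.951% in knockout replicates 1, 2 and 3, and 1.36%, 1.33% and 1.63% in control replicates 1, 2 and 3. The difference of these means was 0.009 percentage points (exact permutation p = 1), the knockout libraries were spread more widely, and without knockout replicate 2 the difference was -0.37. miR-29c-3p amounted to 0.202%, 0.283% and 0.226% of miR-29a-3p in knockout replicates 1, 2 and 3, and to 0.0561%, 0.166% and 0.242% in control replicates 1, 2 and 3. The groups overlapped (exact permutation p = 0.3). With a single base between both sequences, the part of misread miR-29a-3p in these low values was not tested.

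Entries that belong to the chromosome 6 cluster alone, miR-29a-3p and miR-29a-5p, summed to 1602 ± 558 RPM in the knockout and 3361 ± 609 RPM in the control group. Entries of the chromosome 1 cluster alone, miR-29b-2-5p, miR-29c-3p and miR-29c-5p, summed to 4.97, 6.78 and 5.44 RPM in knockout replicates 1, 2 and 3, against 3.60, 7.40 and 8.60 RPM in control replicates 1, 2 and 3. The fall of the family total, to 1633 ± 574 RPM in the knockout against 3417 ± 618 RPM in the control group, was thus almost all miR-29a-3p. Without knockout replicate 3 the log2 ratio of these totals was -0.80, against -1.07 with all libraries.

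Since ordinary miRNAs as a whole took a smaller share of reads in the knockout, miR-29a-3p was next set against the other miRNAs of its own library. Per 1000000 reads of ordinary miRNAs it stood at 4838, 4898 and 3193 in knockout replicates 1, 2 and 3, against 7271, 5583 and 7361 in control replicates 1, 2 and 3. The groups did not overlap on this scale either, and knockout replicate 3 was again the lowest. All knockout libraries lay below all control libraries for 8.71% of tested entries on this scale. Among ordinary miRNAs that averaged 1000 RPM or more it was 38.3%. The means were 4310 ± 967 in the knockout and 6738 ± 1002 in the control group, a ratio of 0.640 (exact permutation p = 0.1, the smallest possible). Fitted by limma on this scale, the log2 fold change was -0.66 ± 0.21 (SE; 95% interval -1.12 to -0.20) and did not pass over all entries (limma adjusted p = 0.136). On this scale 0.18% of all tested entries were called lower and 3.41% higher. Without knockout replicate 3, an alternative chosen after seeing the data, it was -0.46 (limma adjusted p = 0.196; 0.199% called lower). Scaling to ordinary miRNAs gave -0.71 ± 0.39 for miR-29b-3p (SE; limma adjusted p = 0.415), and -0.27 without knockout replicate 3 (limma adjusted p = 0.762).

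**Figure D3:**
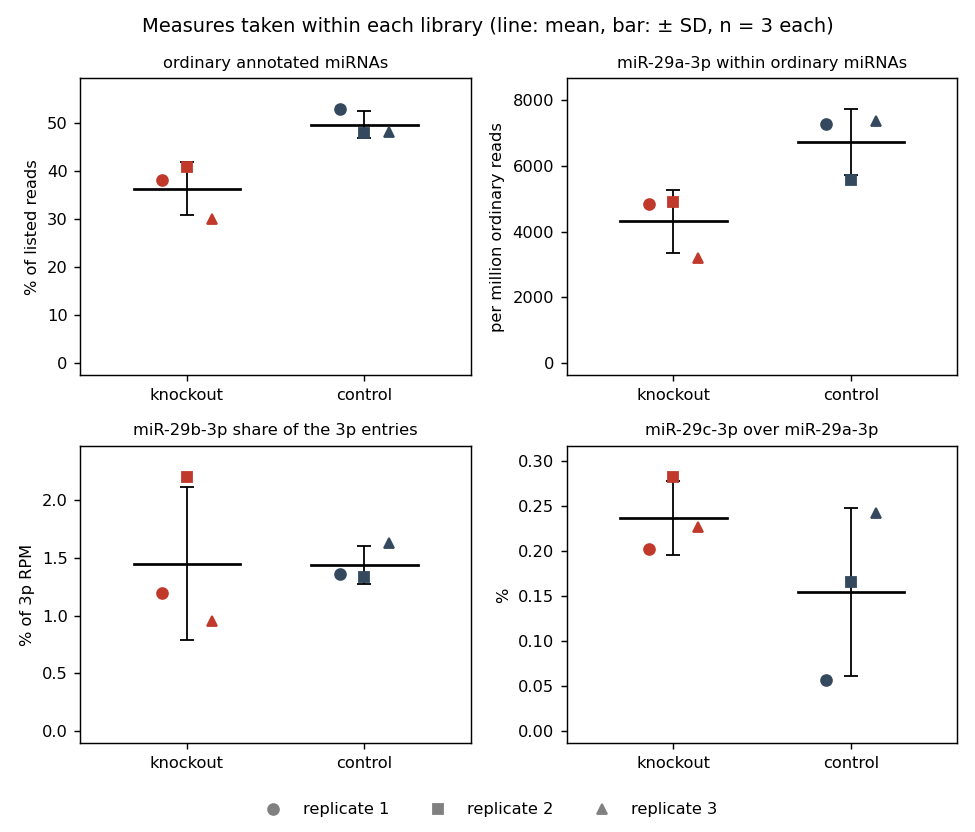
Share of ordinary miRNAs in the listed reads, miR-29a-3p per 1000000 ordinary reads, miR-29b-3p as a share of the 3p entries and miR-29c-3p as a percentage of miR-29a-3p, for knockout and control libraries; lines are means and bars ± SD. The groups do not overlap in the upper panels, where miR-29a-3p lies at 3193 to 4898 in the knockout and 5583 to 7361 in the control libraries, and they overlap in the lower panels.

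Among ordinary miRNAs of high level, miR-29a-3p had the lowest fold change. Of 47 ordinary miRNAs that averaged 1000 RPM or more, 38 lay below 0, with a median log2 fold change of -0.66, and 6 were called lower and 3 higher. miR-29a-3p was the lowest of the 47, next to miR-151-5p at -1.01. Scaling to ordinary miRNAs moves all entries of this level by nearly the same amount (median of the 47 then -0.20). It therefore leaves their order as it was and is no further test of it. Without knockout replicate 3, miR-29a-3p was again the lowest (median -0.41). Its SE of 0.29 is larger than the distance to its neighbour, and the order among them was not tested. Groups without overlap, with the knockout below, were common at this level: 35 of the 47 showed them (74.5%), and 38.3% did per 1000000 ordinary reads; at 10 RPM or more it was 53% of ordinary miRNAs. At that level, 18 of 268 ordinary miRNAs had a lower fold change than miR-29a-3p and 12 a lower one than miR-29b-3p. By level, miR-29a-3p ranked 37, 35 and 45 among annotated entries in knockout replicates 1, 2 and 3, and 30, 30 and 29 in control replicates 1, 2 and 3.

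**Figure D4:**
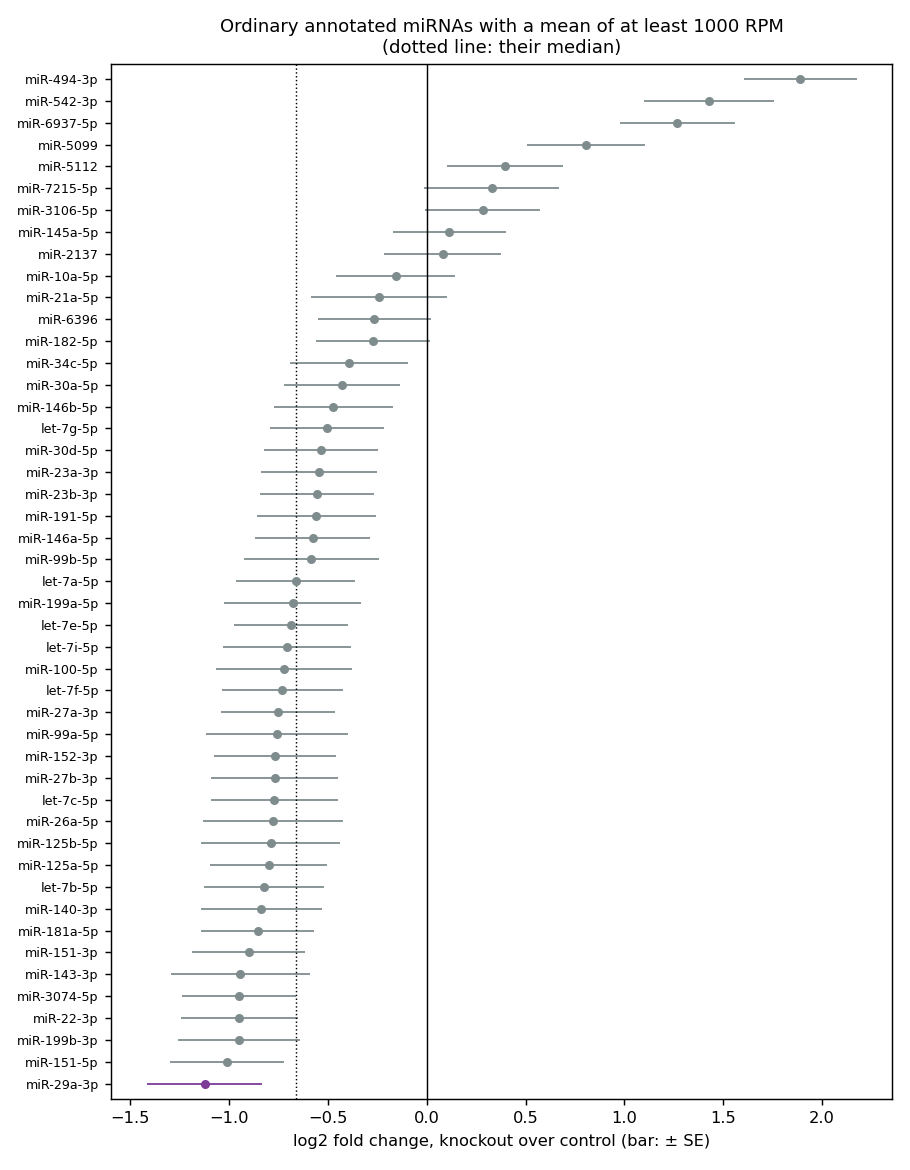
Log2 fold change of knockout over control (horizontal axis, ± SE) of the 47 ordinary miRNAs that averaged 1000 RPM or more, in order. miR-29a-3p, in purple, is at the low end with -1.12, and the dotted median is at -0.66.

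The annotated entries whose levels followed miR-29a-3p most closely over the 6 libraries were chosen by Pearson's r on log2(RPM + 1). They were taken from 127 entries outside the family that averaged 100 RPM or more. They were miR-22-3p (r = 0.993), miR-34b-3p (r = 0.991), miR-193b-3p (r = 0.990), miR-92a-3p (r = 0.989) and let-7e-5p (r = 0.989), all over the same 6 libraries. These entries share the library composition and the genotype difference. Such values were common: the median r of the 127 entries was 0.95, and 68.5% had an r above 0.9. For miR-29b-3p, a family member of lower level than these, r with miR-29a-3p was 0.931, below that median. miR-22-3p, which is known to promote osteoblast differentiation, stood at 2972, 2912 and 1478 RPM in knockout replicates 1, 2 and 3, against 5129, 3930 and 4563 RPM in control replicates 1, 2 and 3. Knockout replicate 3 was lowest and the groups did not overlap. At this level that was common: 74.5% of ordinary miRNAs that averaged 1000 RPM or more had all knockout below all control libraries. Since the 5 entries were chosen for their likeness to miR-29a-3p over the same libraries, their levels and fold changes are a description only. miR-193b-3p averaged 82.4 ± 28.1 RPM in the knockout and 161 ± 25.7 RPM in the control group, with a log2 fold change of -1.01 (limma adjusted p = 0.0426). miR-34b-3p averaged 161 ± 42.0 RPM in the knockout and 276 ± 28.9 RPM in the control group (limma adjusted p = 0.0901). miR-92a-3p (log2 fold change -0.84, limma adjusted p = 0.0640) and let-7e-5p (-0.69, limma adjusted p = 0.137) did not pass either. Over all tested entries 2.69% were called lower. The calls of miR-22-3p (limma adjusted p = 0.0378) and miR-193b-3p were each lost in 4 of 6 fits with a library left out. Scaling to ordinary miRNAs also ended both, with log2 fold changes of -0.48 for miR-22-3p (limma adjusted p = 0.298) and -0.55 for miR-193b-3p (limma adjusted p = 0.250).

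Other miRNAs with published roles in osteoblast differentiation were taken from a list. Of 40 names on a list without the miR-29 family, 33 were tested, 2 were called lower and 0 higher, beside 2.69% and 2.15% of all entries; those called were miR-214-3p and miR-22-3p. Of the 33, 31 lay below 0, beside 60.1% of all tested entries and 215 of 268 (80.2%) ordinary miRNAs of 10 RPM or more. Their median was -0.56, beside -0.27 over all tested entries and -0.59 over those ordinary miRNAs. miR-214-3p, which targets the osteoblast factor Atf4, averaged 417 ± 177 RPM in the knockout and 807 ± 91.0 RPM in the control group, and its call was lost in 3 of 6 fits with a library left out and after scaling to ordinary miRNAs (log2 fold change -0.59, limma adjusted p = 0.231). The most abundant members did not pass: miR-143-3p averaged 22459 ± 9744 RPM in the knockout and 39837 ± 336 RPM in the control group, and miR-26a-5p, which acts in osteogenic differentiation, averaged 23183 ± 6429 RPM in the knockout and 38720 ± 3676 RPM in the control group. miR-125b-5p averaged 21773 ± 4608 RPM in the knockout and 37256 ± 5139 RPM in the control group, and miR-199a-5p averaged 20450 ± 5545 RPM in the knockout and 31952 ± 3659 RPM in the control group.

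Summed marker miRNAs of mesenchymal, blood, endothelial and muscle cells lay lower in all knockout than in all control libraries, as did 19.3% of tested entries and 53% of ordinary miRNAs of 10 RPM or more. The 8 listed mesenchymal markers, among them miR-199a-5p and miR-143-3p, summed to 75035 to 134642 RPM in the knockout and 177598 to 204848 RPM in the control libraries. At 1000 RPM or more, 74.5% of ordinary miRNAs were lower in all knockout libraries. Of the 8, 7 lay below 0 and 1 was called lower. The other, miR-145a-5p, averaged 1070 RPM in the knockout and 997 RPM in the control group (log2 fold change 0.11). The 8 are shared by mesenchymal cells and do not tell osteoblasts from fibroblasts. The 6 listed blood cell markers summed to 240 to 453 RPM in the knockout and 584 to 849 RPM in the control libraries, and of 5 tested 2 were called lower, beside 2.69% of all tested entries. These were miR-144-3p and miR-486b-5p, and each call was lost in 3 of 6 fits with a library left out and after scaling to ordinary miRNAs (limma adjusted p = 0.107 for miR-144-3p and 0.177 for miR-486b-5p). The 2 endothelial markers summed to 15.2 to 26.7 RPM in the knockout and 47.9 to 63.6 RPM in the control libraries, and the 3 muscle markers to 40.3 to 57.6 RPM in the knockout and 71.0 to 85.1 RPM in the control libraries. The groups overlapped for the 5 epithelial markers, at 15.8 to 29.2 RPM in the knockout and 21.4 to 25.2 RPM in the control libraries, and for the 1 neural marker, at 0 to 6.78 RPM in the knockout and 1.23 to 5.05 RPM in the control libraries. Per 1000000 reads of ordinary miRNAs the mesenchymal sum was 249260 to 340557 in the knockout and 369809 to 386274 in the control libraries, the blood cell sum 799 to 1188 in the knockout and 1215 to 1600 in the control libraries, and the endothelial sum 50.6 to 70.2 in the knockout and 99.4 to 132 in the control libraries. All knockout libraries lay below all control libraries on that scale for 8.71% of tested entries and for 38.3% of ordinary miRNAs of 1000 RPM or more. On that scale the muscle and neural sums overlapped. The epithelial sum was 52.4 to 76.7 in the knockout and 43.5 to 52.3 in the control libraries, so the groups nearly touched. In RPM, 0 of the 4 tested epithelial markers were called and 2 lay below 0. The share of all entries that lay higher in all knockout libraries on that scale was not counted. No entry of any kind is listed at 0 in all libraries, so an undetected marker would be missing rather than at 0. Listed were 8 of 10 mesenchymal names, 6 of 8 for blood cells and 2 of 4 for endothelium. For muscle 3 of 4 were listed, for neural cells 1 of 2 and for epithelium 5 of 5. Whether a missing name was undetected or absent from the annotation used is not known. The part of these cell types in the fall of miR-29a-3p was not tested.

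The sites that the shared seed can pair with are given for genes reported as miR-29 targets, since these define what the family is known for; no mRNA was measured here. The letters TGGTGCT pair with bases 2 to 8 of the 3p arms, and TGGTGCTA contains them and adds an A opposite base 1; both were searched on the transcript strand in the longest 3′ UTR of each gene in GENCODE M21. TGGTGCT occurred in 20 of 24 reported targets and in 13.1% of 20981 genes, and TGGTGCTA in 12 of 24 and in 2.85%. Among genes with a 3′ UTR of similar length to a given target's, the share with TGGTGCT averaged 15.3% over the 24 targets, and that with TGGTGCTA 3.27%. The targets were listed as known ones, many of them first found through this seed, so the excess is no independent evidence. The first TGGTGCTA of Col1a1 (type I collagen, the main bone matrix protein), Col3a1 (type III collagen), Fbn1 (fibrillin-1, of microfibrils) and Mcl1 (an inhibitor of apoptosis) is shown with the matching letters in capitals.
Col1a1, chr11:94952516-94952545, plus strand: gggtggggtgggaaggaatttcTGGTGCTA
Col3a1, chr1:45348960-45348989, plus strand: ttccaacttcaaaatgtctcaaTGGTGCTA
Fbn1, chr2:125301173-125301202, minus strand: cagtaggtttctgttgtctgttTGGTGCTA
Mcl1, chr3:95661837-95661866, plus strand: aagcaggctagagtcttaaccaTGGTGCTA

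All of these sites lie in a 3′ UTR and would pair alike with the seeds of miR-29a-3p, miR-29b-3p and miR-29c-3p. Col5a1, which encodes a type V collagen chain, held 4 matches to TGGTGCT, Eln (elastin) and Col5a3 held 3 each, and Dnmt3a, a DNA methyltransferase, held 5 in a 3′ UTR of 6696 bases. Col1a2, Sparc, Bmp1 and Tgfb3 held no match in the 3′ UTR used.

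**Figure D5:**
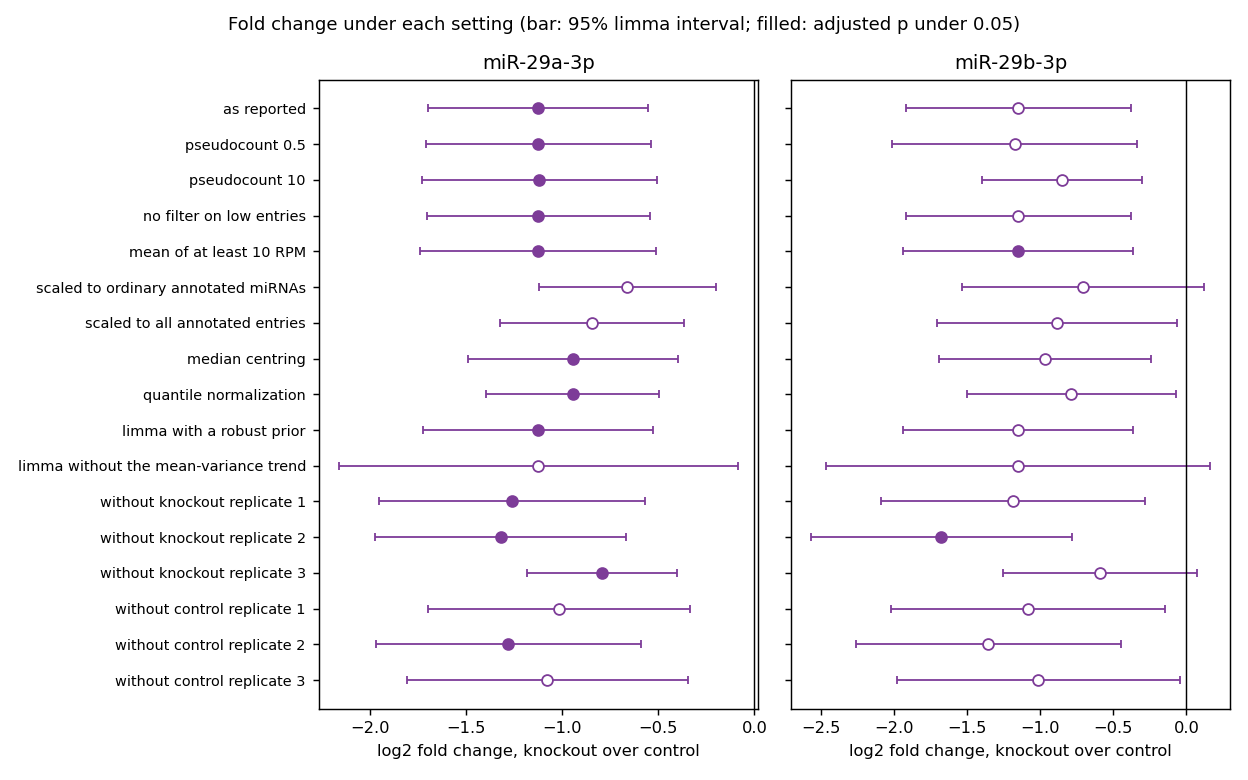
Log2 fold change of knockout over control of miR-29a-3p and miR-29b-3p (horizontal axes) under each setting, with 95% limma intervals; filled symbols mark an adjusted p under 0.05. miR-29a-3p stayed below 0 in all settings shown, between -1.32 without knockout replicate 2 and -0.66 with scaling to ordinary miRNAs, with no call in 5 of them (unfilled).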

How the data were processed

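The authors deposited 1 table of RPM values, each column summing to 1000000 over all listed entries. fastp and edgeR are named, without role or version, per the submitters' processing notes. Aligner, miRNA annotation and genome build: not given in the sources used here. Every deposited value was a whole multiple of 0.5 of its column's lowest non-zero value (tolerance 0.001), but no entry had a value of 1 such step, so the table was not treated as raw counts.

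The main test was limma 3.58.1 (R 4.3.3), with its trend option, on log2(RPM + 1), over entries with at least 1 RPM in at least 3 libraries, called at an adjusted p under 0.05. Fold changes on this scale understate those of low entries. Shares and ratios within libraries were compared by exact 2-sided permutation. Poisson intervals take 1 step as 1 read and cover counting error only. Alternatives varied the pseudocount, filter, scaling, prior, replicate block and the libraries kept. The fit was tested on simulated data. All 6 family entries are named; the 5 entries nearest to miR-29a-3p, the 4 most abundant osteoblast-list entries and those on which a result turns complete the names. The members and lists were chosen with earlier results of these data known. Hairpin and site positions are from RefSeq and GENCODE M21 on GRCm38, matched by name.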

Additional observations from a re-analysis of the deposited data

How the results depend on the processing

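The log2 fold change of miR-29a-3p stayed below 0 in all 18 alternatives run. It lost its call with scaling to ordinary miRNAs (-0.66), with scaling to all annotated entries (-0.85, limma adjusted p = 0.0528), without the mean-variance trend (-1.12, limma adjusted p = 0.398), and, chosen after seeing the data, with scaling to ordinary miRNAs and knockout replicate 3 left out (-0.46); in these the number of family entries called lower was 0, against 1. With a library left out it ranged from -1.32 to -0.79 and the number called from 0 to 2. With a minimum mean of 10 RPM, 2 entries were called, since miR-29b-3p passed (limma adjusted p = 0.0284) among the 355 entries then tested. With a robust prior, other pseudocounts (0.5, 10), no filter, median centring or quantile normalization the call of miR-29a-3p held, with log2 fold changes from -1.12 to -0.94.

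miR-29c-3p turned to 0.11 with scaling to ordinary miRNAs, and to 0.30 when knockout replicate 3 was also left out; with a library left out it ranged from -0.64 to 0.16. The difference in the miR-29b-3p share, 0.009 percentage points, turned to -0.03 without control replicate 1, -0.05 without control replicate 2 and -0.37 without knockout replicate 2; with a library left out it ranged from -0.37 to 0.26. The causes were not tested. The log2 ratio of family totals (-1.07), of miR-29a-3p per 1000000 ordinary reads (-0.64) and the arm difference (-1.76) kept their direction in all alternatives run, down to -0.64, -0.47 and -0.79. All of these rest on the miR-29a-3p values and are not separate results. miR-29a-5p was listed at 0 in every library but knockout replicate 3. Without that library the arm difference is the log2 fold change of miR-29a-3p again (-0.79).

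Replicate numbers gave no sign of pairing the libraries. Deviations from the group means correlated by 0.005, -0.02 and 0.01 for numbers 1, 2 and 3, and by -0.08 to 0.07 between different numbers. With 3 libraries per group, the deviations of a group sum to 0, so these values cannot show that pairing is absent. With a replicate block miR-29a-3p kept its call (-1.12, limma adjusted p = 0.0199), while over all entries 19 were called higher and 11 lower, against 24 and 30. Over all entries, 38 higher and 2 lower were called with scaling to ordinary miRNAs, 28 and 5 with scaling to every annotated entry, 32 and 8 after median centring, 32 and 16 with quantile normalization; the median of all tested entries was then 0.06, -0.07, -0.08 and -0.05, against -0.27. edgeR and DESeq2 were not run, since the deposited RPM values were not treated as raw counts. Depth limits miR-29c and the 5p arms, which lie near the level of 3 reads.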
